A study of Homo sapiens with 12 samples.

Results

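The joint response of A375 cells to XL413 and GSK343 was described as an interaction: for each gene, the log2 effect of GSK343 in the presence of XL413 minus its log2 effect in the absence of XL413. A value of 0 means that the combination changed the RNA level by the sum of both single log2 effects. All 12 libraries of the series enter this quantity, 3 in each of 4 groups. A375 is an established BRAF-mutant human melanoma line. Cells were given DMSO, the solvent, or 1 µM XL413, or 1 µM GSK343, or 1 µM of each compound together, for 24 h, and the labels call the 3 libraries of a group biological replicates. Messenger RNA was purified with oligo-dT and sequenced as strand-specific libraries. The data concern 1 cell line at 1 dose and 1 time.

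CDC7, the target of XL413, is a kinase that acts with its regulatory subunit DBF4 or DBF4B to phosphorylate the MCM helicase at licensed replication origins, a step that starts DNA synthesis in S phase. EZH2, the target of GSK343, is the catalytic subunit of Polycomb repressive complex 2, which places methyl groups on lysine 27 of histone H3 at silenced genes. It works with the core subunits EED and SUZ12. A compound pair is additive on the log scale when the 2 fold changes multiply. A negative interaction means a level below that product, and a positive one a level above it, whichever way the single compounds moved the gene.

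In the median, RNA levels under the combination were close to what both single effects predict together. HMGCS1, the cytosolic HMG-CoA synthase of cholesterol synthesis, averaged 68.8 ± 2.13 CPM (counts scaled to the library size, mean ± SD of 3 libraries) with both compounds, beside 64.2 CPM if the log2 effects added. HMMR, a hyaluronan receptor of the mitotic spindle, averaged 107 ± 3.75 beside 109 CPM, and the amino acid transporter gene SLC7A5 averaged 823 ± 65.9 beside 804 CPM. With edgeR's quasi-likelihood test and Benjamini-Hochberg adjustment over 15443 tested genes, 0 genes (0%) passed an adjusted p of 0.05 for the interaction. The smallest adjusted p was 0.766. At an unadjusted p under 0.05 there were 413 genes (2.67%). That is less than the threshold of 0.05 would give if no gene departed, so this count is not evidence of departures. Whether the test is conservative here was not tested. limma-voom also called 0 genes and DESeq2 called 2, which are described with their values further on. In a bulk culture, fewer cells of a kind and less RNA per cell cannot be told apart, so these are statements about the RNA of the whole culture.

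The libraries held 31553205 to 39079931 expected counts and 18239 to 18551 genes with a count. The second library of the combination, GSK343+XL413 replicate 2, stood apart. Across 12364 genes, its log2 deviation from its group's other libraries had an SD of 0.277, against 0.134 to 0.178 in the other 11 libraries. Values without it are given beside many of the results that it moves, and values given once are from all 12 libraries. With the remaining 11 libraries, 0 of 15584 genes were called (smallest adjusted p 0.826), and 438 (2.81%) had an unadjusted p under 0.05. The cells carried the melanoma marker SOX10 at 296 to 370 CPM, MITF at 36.6 to 50.5 CPM and the receptor AXL, a marker of the undifferentiated state, at 337 to 486 CPM in the 12 libraries. Pigment cell genes were near the floor: TYR was 0 in every library, MLANA at most 0.204 and PMEL 0.437 to 1.12 CPM. The leukocyte gene PTPRC was at most 0.0875 CPM, and the epithelial genes EPCAM and CDH1 at most 0.224 and 0.172 CPM. Other epithelial markers were expressed, and the whole list of 12 summed to 660 to 692 CPM with DMSO.

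A count of 0 calls does not say how large a departure could have been missed, so the 95% interval of each gene's interaction was read against fixed limits. These intervals are per gene and are not adjusted for the number of genes. For 13104 genes (84.9%) the whole interval lay inside a 2-fold departure in either direction, and for 11113 (72%) it lay inside 1.5-fold. A limit of 1.25-fold held for 7214 genes (46.7%). The standard error (SE) of the interaction had a median of 0.115 on the log2 scale, and the median of the largest departure still inside a gene's interval was 1.27-fold. With pairs of one-sided tests adjusted over all genes, 13468 genes were inside 2-fold and 11428 inside 1.5-fold at an adjusted p under 0.05. Without GSK343+XL413 replicate 2 the interval lay inside 2-fold for 13022 genes (83.6%), inside 1.5-fold for 11363 (72.9%) and inside 1.25-fold for 8688 (55.7%), with a median SE of 0.0977.

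The level of a gene set how much could be excluded. Of 10099 genes with a mean of at least 3 log2 CPM, 99.7% were inside 2-fold, 96.9% inside 1.5-fold and 70.8% inside 1.25-fold. Without GSK343+XL413 replicate 2 the last 2 shares were 99.3% and 85.4%. Among 4487 genes between 5 and 7 log2 CPM the median largest departure inside the interval was 1.17-fold. Among 2036 genes under 0 log2 CPM it was 2.84-fold, and 9.77% of these genes were inside 2-fold. Of the 2339 genes that were not inside 2-fold, 2181 had a mean under 1 log2 CPM. For these low genes the interval still held a departure of 2-fold at this depth.

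**Figure D1:**
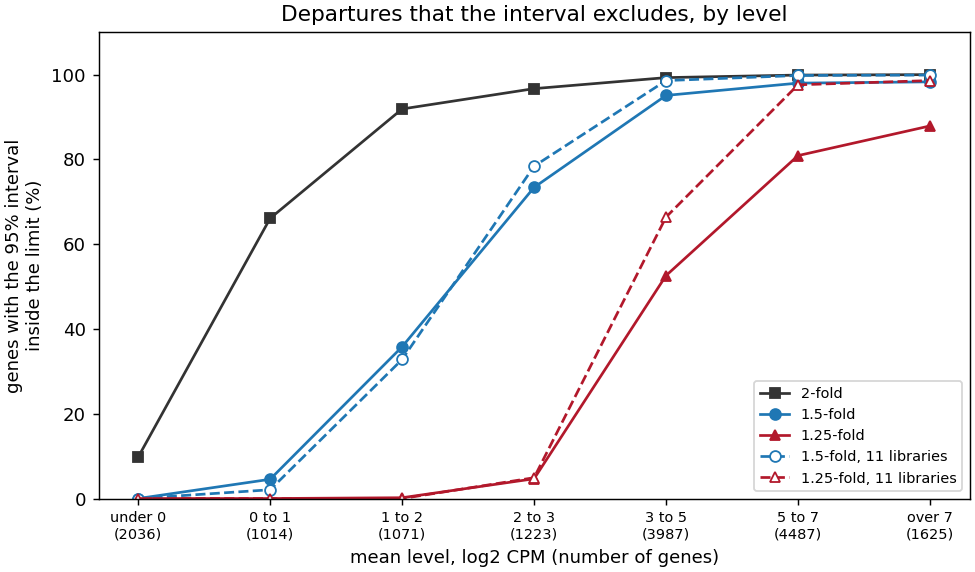
Share of tested genes (%) whose 95% interval of the interaction lies wholly inside a 2-fold, 1.5-fold or 1.25-fold departure, by mean level (log2 CPM, number of genes in parentheses); dashed lines with open symbols are the 11 libraries without GSK343+XL413 replicate 2. The 1.5-fold line passes 95% from 3 log2 CPM upward, and the 1.25-fold line reaches 87.9% above 7 log2 CPM with 12 libraries.

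The targets of both compounds and their partners were measured first. CDC7 stood at 24.7, 22.9 and 22.8 CPM with DMSO, 22.5, 24.6 and 22.8 with XL413, 26.7, 25.2 and 25.1 with GSK343 and 24.96, 23.6 and 25.4 with both. The combination overlaps each other group, GSK343 lies just above DMSO and XL413, and the interaction was −0.04 (95% interval −0.21 to 0.12). DBF4, its activating subunit, had an interaction of −0.01 (−0.15 to 0.12), and DBF4B, the alternative subunit, −0.05 (−0.28 to 0.19). EZH2 was 94.2, 101 and 95.4 CPM with DMSO, 93.0, 87.7 and 90.8 with XL413, 90.2, 86.3 and 88.9 with GSK343 and 88.1, 88.4 and 85.7 with both. EZH2 fell by 0.15 on the log2 scale with the combination (adjusted p = 0.0329), and its interaction was 0.08 (−0.05 to 0.21). Among the other Polycomb subunits the interaction was 0.03 for SUZ12, 0.07 for EED and 0.00 for the histone chaperone RBBP4. JARID2, an accessory subunit that guides the complex, had the widest of these intervals, −0.45 to 0.11 around −0.17. All 13 targets and partners were inside 1.5-fold, and 12 were inside 1.25-fold, beside 72% and 46.7% over all genes. Genes of low level lower these 2 shares, which were 96.9% and 70.8% over genes of at least 3 log2 CPM. The compounds act on proteins, so these RNA levels do not show whether the enzymes were inhibited.

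Of the 8 genes named for their change with XL413, 6 were also called with the combination, in the same direction. XL413 alone changed 66 of 15443 genes against DMSO (0.427%), 43 higher and 23 lower. HMMR was 73.6, 75.9 and 75.3 CPM with DMSO, 109, 109 and 114 with XL413, 73.6, 70.3 and 77.8 with GSK343 and 109, 103 and 109.9 with both. Both groups that received XL413 lay above both groups that did not, with no overlap. HMMR rose by 0.56 (SE 0.045) with XL413 (adjusted p = 0.000189) and by 0.52 (SE 0.045) with the combination (adjusted p = 6.85e-05), and the interaction was −0.03 (−0.17 to 0.11). CDK1, the cyclin-dependent kinase of mitotic entry, was 104, 105 and 106 CPM with DMSO, 135, 144 and 146 with XL413, 108, 99.8 and 102 with GSK343 and 136, 148 and 145 with both. Again the XL413 groups were apart from the others, and the interaction was 0.04 (−0.10 to 0.18). UBE2C, a ubiquitin-conjugating enzyme of the anaphase-promoting complex named here after its values were seen, rose by 0.46 with XL413 (adjusted p = 0.00612) and by 0.51 with both (adjusted p = 0.000662), with an interaction of 0.11 (−0.09 to 0.30).

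Among histone genes, HIST1H2AC and HIST1H2BK rose with XL413 and with both compounds. HIST1H2AC, a histone H2A gene, was 5.51, 5.30 and 4.55 CPM with DMSO and reached 9.19, 9.43 and 9.71 with XL413. It was 6.77, 6.82 and 5.56 with GSK343 and 10.9, 12.2 and 11.3 with both, where all 3 libraries lay above the other 9. The sum of the single effects predicts 11.8 CPM and the observed mean was 11.5 ± 0.651 CPM, an interaction of −0.03 (−0.32 to 0.26). HIST1H2BK, a histone H2B gene, rose by 0.69 with XL413 (adjusted p = 0.00612) and by 0.90 with both (adjusted p = 0.000195), and its interaction was 0.04 (−0.25 to 0.33). Most messages of replication-dependent histones lack a poly-A tail, so oligo-dT captures a part of them. Of 17 tested members of that list, 4 were inside 1.5-fold and 10 inside 2-fold, beside 72% and 84.9% over all genes. The median largest departure inside the interval was 1.83-fold for the list. Their median change was 0.217 with XL413, 0.169 with GSK343 and 0.3 with both, and the median of the sums was 0.573. The median of the interactions was −0.0294, and −0.111 without GSK343+XL413 replicate 2. Medians of a list need not add, and the members' interactions ran from −0.546 to 0.533.

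On the falling side, H1F0, a linker histone gene of the replication-independent kind, fell by 0.25 with XL413 (adjusted p = 0.00481) and by 0.23 with both (adjusted p = 0.00121), with an interaction of 0.02 (−0.08 to 0.12). SNAPC1, a subunit of the small nuclear RNA activating complex, fell by 0.34 with XL413 (adjusted p = 0.00175) and by 0.30 with both (adjusted p = 0.000465), with an interaction of 0.15 (0.04 to 0.27). ESM1 and FST are the 2 that were not called with the combination. ESM1, which encodes the secreted proteoglycan endocan, is the XL413 gene that departed farthest of the 8 named by their single effect. Its level was 56.7, 55.2 and 57.0 CPM with DMSO and 45.1, 44.8 and 45.2 with XL413, with no overlap. It was 56.2, 56.2 and 57.1 with GSK343 and 50.7, 54.1 and 52.4 with both, between the XL413 group and the other 2. ESM1 fell by 0.32 with XL413 (adjusted p = 0.00359), and with both compounds the value was −0.10 (adjusted p = 0.0915). Its interaction of 0.21 (0.10 to 0.33, unadjusted p = 0.00178, adjusted p = 0.989) did not pass the test. FST, the activin-binding protein follistatin, fell by 0.35 with XL413 (adjusted p = 0.00359) and rose by 0.19 with GSK343 (adjusted p = 0.0415). With both it was −0.04 (adjusted p = 0.574), so opposite single effects met near the DMSO level, with an interaction of 0.12 (−0.01 to 0.24).

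MKI67 shows how 1 library decides an interval. This gene, the source of the Ki-67 proliferation antigen, was 531, 556 and 555 CPM with DMSO, 425, 395 and 402 with XL413, 481, 492 and 539 with GSK343 and 379, 200.5 and 392 with both. GSK343+XL413 replicate 2 is the lowest of all 12 values, and the other 2 libraries of its group lie just below those of XL413 alone. The interaction was −0.21 (−0.74 to 0.31) with 12 libraries and 0.03 (−0.10 to 0.16) with 11. TOP2A, the topoisomerase of dividing cells, gave −0.08 (−0.29 to 0.13) and 0.01 (−0.10 to 0.12) in the same fits.

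GSK343 alone changed 180 of 15443 genes (1.17%), 112 higher and 68 lower, and all 8 genes named for this effect were called in the same direction with the combination. HMGCS1 was 41.9, 40.3 and 43.1 CPM with DMSO, 41.5, 39.3 and 39.7 with XL413, 68.2, 64.9 and 67.0 with GSK343 and 68.1, 67.1 and 71.2 with both. The 6 libraries with GSK343 were all above the 6 without it. HMGCS1 rose by 0.68 (SE 0.044) with GSK343 (adjusted p = 1.4e-05) and by 0.72 (SE 0.044) with both (adjusted p = 6.19e-06), and its interaction was 0.10 (−0.03 to 0.23). GPNMB, a glycoprotein of melanosomes and lysosomes, rose by 0.51 with GSK343 (adjusted p = 0.000184) and by 0.57 with both (adjusted p = 3.08e-05), with an interaction of −0.03 (−0.17 to 0.10). SQSTM1, the autophagy receptor p62, was 595, 589 and 602 CPM with DMSO, 583, 595 and 575 with XL413, 832, 829 and 744 with GSK343 and 819, 899.6 and 807 with both. It, too, separated by GSK343 without overlap, and its interaction was 0.10 (−0.05 to 0.25). PTGES, the inducible prostaglandin E synthase, rose by 0.88 with GSK343 (adjusted p = 0.000184) and by 0.86 with both (adjusted p = 7.24e-05), with an interaction of −0.16 (−0.40 to 0.07).

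The genes named for a fall with GSK343 serve the stress response and amino acid use. HSPA1A, an inducible heat shock protein 70 gene, was 146, 143 and 140.3 CPM with DMSO and 121, 116 and 129 with XL413. It was 105, 104 and 106 with GSK343 and 93.5, 98.2 and 98.8 with both, so the 4 groups follow each other downward without overlap. HSPA1A fell by 0.23 with XL413 (adjusted p = 0.042), by 0.45 with GSK343 (adjusted p = 0.000298) and by 0.56 with both (adjusted p = 3.08e-05). The interaction was 0.12 (−0.02 to 0.25). HSPA1A and HSPA1B are near-identical, so the division of reads between them is uncertain, and HSPA1B gave 0.07 (−0.12 to 0.25). PSAT1, an enzyme of serine synthesis, was 393, 395 and 389 CPM with DMSO, 349, 349 and 362 with XL413, 315, 312 and 309 with GSK343 and 298, 314 and 294 with both. The groups that received GSK343 were the lowest and overlapped each other, and the interaction was 0.10 (0.00 to 0.21). YARS, the tyrosyl-tRNA synthetase, fell by 0.22 with GSK343 (adjusted p = 0.00287) and by 0.25 with both (adjusted p = 0.000431), with an interaction of 0.03 (−0.06 to 0.12).

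The level with both compounds was under that with GSK343 alone in UCN2. This gene, which encodes a peptide hormone of the corticotropin-releasing family, was 11.9, 12.7 and 11.2 CPM with DMSO, 11.8, 12.7 and 11.9 with XL413, 18.9, 19.0 and 18.8 with GSK343 and 16.2, 15.4 and 16.2 with both. The combination lay between GSK343 and the groups without it, with no overlap on either side. UCN2 rose by 0.66 with GSK343 (adjusted p = 0.000231) and by 0.42 with both (adjusted p = 0.00152). Its interaction of −0.26 (−0.45 to −0.08, unadjusted p = 0.00907, adjusted p = 0.989) did not pass the test.

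Over all genes called in a single comparison, most intervals excluded a departure of 1.5-fold. Of the 66 genes called with XL413, 63 (95.5%) were inside 1.5-fold, and of the 180 called with GSK343, 161 (89.4%) were. The share was 72% over all tested genes and 89.3% over genes of at least 1 log2 CPM, so these shares do not set the called genes apart from level. The limit is also wide beside the single effects. Their medians were 0.325 (higher) and −0.322 (lower) with XL413, and 0.384 and −0.208 with GSK343. All are smaller than 1.5-fold, so an interval inside that limit can still hold an interaction as large as the single effect. The medians of the interaction were −0.0282 over the 43 genes higher with XL413 and 0.068 over the 23 lower ones. They were −0.0715 over the 112 genes higher with GSK343 and 0.0509 over the 68 lower ones. A gene is called in part where the single-compound libraries happen to lie far out, and those libraries enter the interaction with the opposite sign. The signs of these medians are therefore partly fixed by the choice of genes and are a description. The 2 counts of calls depend on single libraries. Without any 1 of DMSO replicates 1, 2 and 3 and XL413 replicates 1, 2 and 3 there were 16 to 29 genes called with XL413, and without GSK343+XL413 replicate 2 there were 756. GSK343 calls numbered 37 to 68 when any 1 of DMSO or GSK343 replicates 1, 2 and 3 was left out. There were 119 without XL413 replicate 2 and 958 without GSK343+XL413 replicate 2.

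The combination was called against DMSO at many more genes than either compound, and in the median those changes were close to the sum. It changed 2152 of 15443 genes (13.9%), of which 2151 have an estimated interaction. Over the 1033 higher genes the median change was 0.152 with XL413, 0.127 with GSK343 and 0.312 with both, and the median of the summed single effects was 0.283. Over the 1118 lower genes the medians were −0.116, −0.111 and −0.244, and the median sum was −0.224. For 2144 of the 2151 genes the sum had the sign of the combination. The same DMSO libraries enter the sum and the choice of these genes, so this agreement is partly fixed and is a description. For 1964 (91.3%) the interaction lay inside 1.5-fold, beside 72% over all genes and 89.3% over genes of at least 1 log2 CPM. The median changes above are smaller than 1.5-fold, so such an interval can still hold an interaction as large as a single effect. The interaction was called at 0 of the 2151 genes. Of the 66 XL413 calls, 54 were also called with the combination, as were 151 of the 180 GSK343 calls, and 1955 combination calls were called with neither compound alone. A call in 1 comparison and none in another is not a test of a difference, and the interaction is that test. All 3 comparisons share the DMSO libraries, so these overlaps are descriptions. Without DMSO replicate 1, 2 or 3 the combination called 1127, 850 or 1055 genes.

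**Figure D2:**
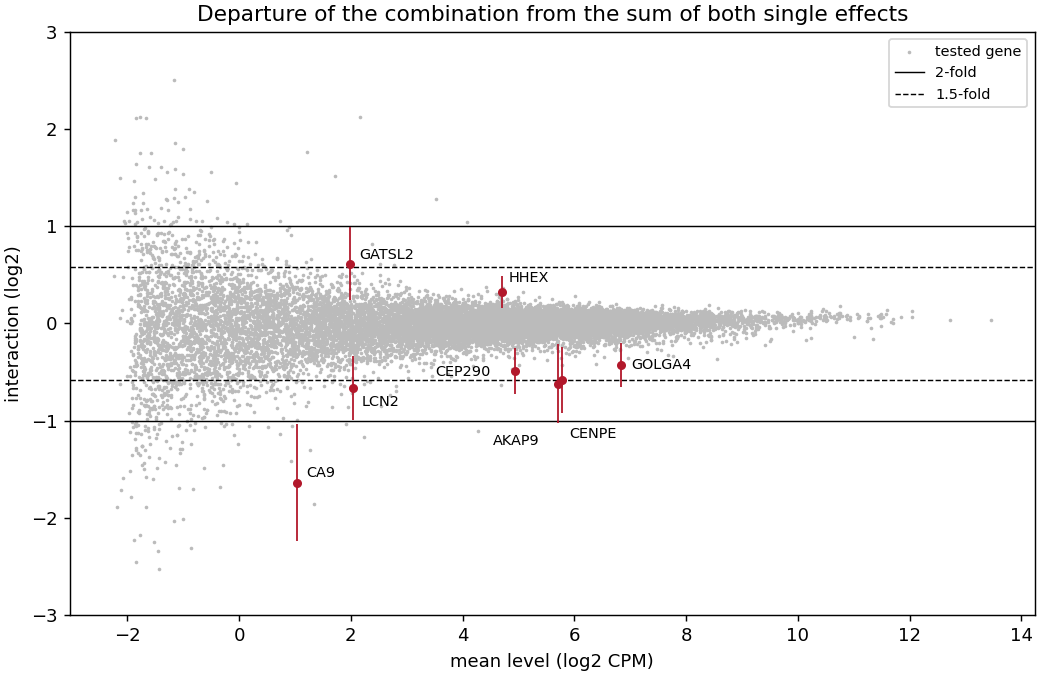
Interaction (log2) of each tested gene against its mean level (log2 CPM); grey points are genes, red points with bars are 8 named genes with their 95% intervals, and solid and dashed lines mark 2-fold and 1.5-fold. The cloud narrows with level, and CA9 is the named gene whose interval lies wholly beyond 2-fold; 10 low-level genes beyond 3 on the log2 scale are not drawn.

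CA9 lay nearest to a departure. CA9 encodes carbonic anhydrase IX, a cell-surface enzyme that acidifies the surroundings of the cell and is a known target of hypoxia-inducible factors; it lies on chromosome 9, 35673856 to 35681159 (GENCODE 29, GRCh38). Its level was 1.42, 2.02 and 1.11 CPM with DMSO, 1.78, 2.05 and 1.80 with XL413, 3.33, 2.99 and 3.48 with GSK343 and 1.46, 1.37 and 1.06 with both. The GSK343 libraries were above all others, and the combination overlapped DMSO and lay below every XL413 library. CA9 rose by 1.10 (SE 0.19) with GSK343 (adjusted p = 0.0139), and the values were 0.30 (SE 0.2) with XL413 (adjusted p = 0.535) and −0.23 (SE 0.208) with both (adjusted p = 0.492). The sum of the single effects predicts 4.04 CPM, and the observed mean was 1.30 ± 0.210 CPM, a ratio of 0.322. The interaction was −1.64 (−2.24 to −1.04, unadjusted p = 4.96e-05, adjusted p = 0.766), and −1.69 (−2.34 to −1.04) without GSK343+XL413 replicate 2. DESeq2 called it, with an adjusted p of 0.00351, while edgeR and limma-voom did not. The level is low, near 1 log2 CPM. Other hypoxia genes had smaller values: the interaction was −0.12 (−0.25 to 0.00) for NDRG1, −0.12 (−0.27 to 0.03) for VEGFA and 0.05 (−0.08 to 0.18) for the glycolytic enzyme ALDOA. Of 24 tested hypoxia and glycolysis genes 8 had an interaction above 0, beside 8016 of 15443 over all genes, and the median was −0.0288. Inside 1.5-fold were 20 (83.3%), beside 72% over all genes and 89.3% over genes of at least 1 log2 CPM.

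LCN2, SERPINA3 and ICAM1 each stood below the sum as well. LCN2, the secreted iron-siderophore carrier lipocalin 2 (chromosome 9, 128149071 to 128153455), was 2.76, 3.35 and 3.25 CPM with DMSO, 4.43, 4.75 and 4.08 with XL413, 4.87, 4.31 and 4.37 with GSK343 and 3.91, 4.15 and 4.04 with both. All 9 treated libraries were above DMSO, and the combination mean of 4.03 CPM was under those of XL413, 4.42, and GSK343, 4.52. The interaction was −0.66 (−0.99 to −0.34, unadjusted p = 0.000686, adjusted p = 0.989). SERPINA3, the acute-phase protease inhibitor antichymotrypsin (chromosome 14, 94612377 to 94624055), was 129.6, 127 and 124 CPM with DMSO, 132, 137 and 136 with XL413, 178, 183 and 165 with GSK343 and 154, 162 and 159 with both. The combination sat below GSK343 and above the other 2 groups, with no overlap, and its interaction was −0.23 (−0.37 to −0.10, unadjusted p = 0.00219). ICAM1, the adhesion molecule that leukocytes bind (chromosome 19, 10270835 to 10286615), was 62.5, 60.4 and 57.6 CPM with DMSO, 75.5, 76.3 and 74.3 with XL413, 66.5, 65.7 and 63.4 with GSK343 and 69.7, 65.7 and 73.1 with both. The combination lay below XL413, above DMSO and across the GSK343 values. ICAM1 rose by 0.32 with XL413 (adjusted p = 0.00895) and by 0.21 with both (adjusted p = 0.014), and its interaction was −0.23 (−0.38 to −0.09, unadjusted p = 0.00405).

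Among the cytokine genes, CXCL8, the neutrophil attractant interleukin 8, rose by 0.39 with XL413 (adjusted p = 0.00569), by 0.25 with GSK343 (adjusted p = 0.0419) and by 0.51 with both (adjusted p = 0.000178). Its interaction was −0.13 (−0.29 to 0.03) with 12 libraries and −0.20 (−0.32 to −0.09) with 11. CXCL1, a related chemokine, gave −0.07 (−0.22 to 0.08) and −0.13 (−0.24 to −0.03). IL1A, the alarm cytokine interleukin 1 alpha, had an interaction of −0.45 (−0.78 to −0.12). Of 25 tested genes of NF-kB and secreted inflammatory factors 8 had an interaction above 0 and 18 were inside 1.5-fold, beside 8016 of 15443 and 72% over all genes. The median change over the list was 0.193 with XL413, 0.175 with GSK343 and 0.241 with both, and the median sum was 0.419. The median interaction was −0.068, and none of the 25 was called. The list was chosen with earlier results known, and it rose with each single compound in the median. Those libraries enter the interaction with the opposite sign, so the lean below 0 may be partly fixed by the choice of genes and is a description.

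2 further genes below the sum were USP45 and NREP. USP45, a ubiquitin-specific protease linked to repair of crosslinks, was 10.3, 10.5 and 9.21 CPM with DMSO, 11.2, 11.5 and 11.5 with XL413, 11.5, 11.6 and 11.9 with GSK343 and 9.61, 10.0 and 10.5 with both. The single compounds lay above DMSO and the combination lay near the range of DMSO, for an interaction of −0.41 (−0.61 to −0.20, unadjusted p = 0.000822). NREP, a small regulator of neuronal regeneration, rose by 0.29 with GSK343 (adjusted p = 0.0197), was 0.13 with both (adjusted p = 0.105), and had an interaction of −0.28 (−0.44 to −0.12, unadjusted p = 0.00195). The adjusted p of the interaction was 0.989 for each of these and for SERPINA3 and ICAM1.

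**Figure D3:**
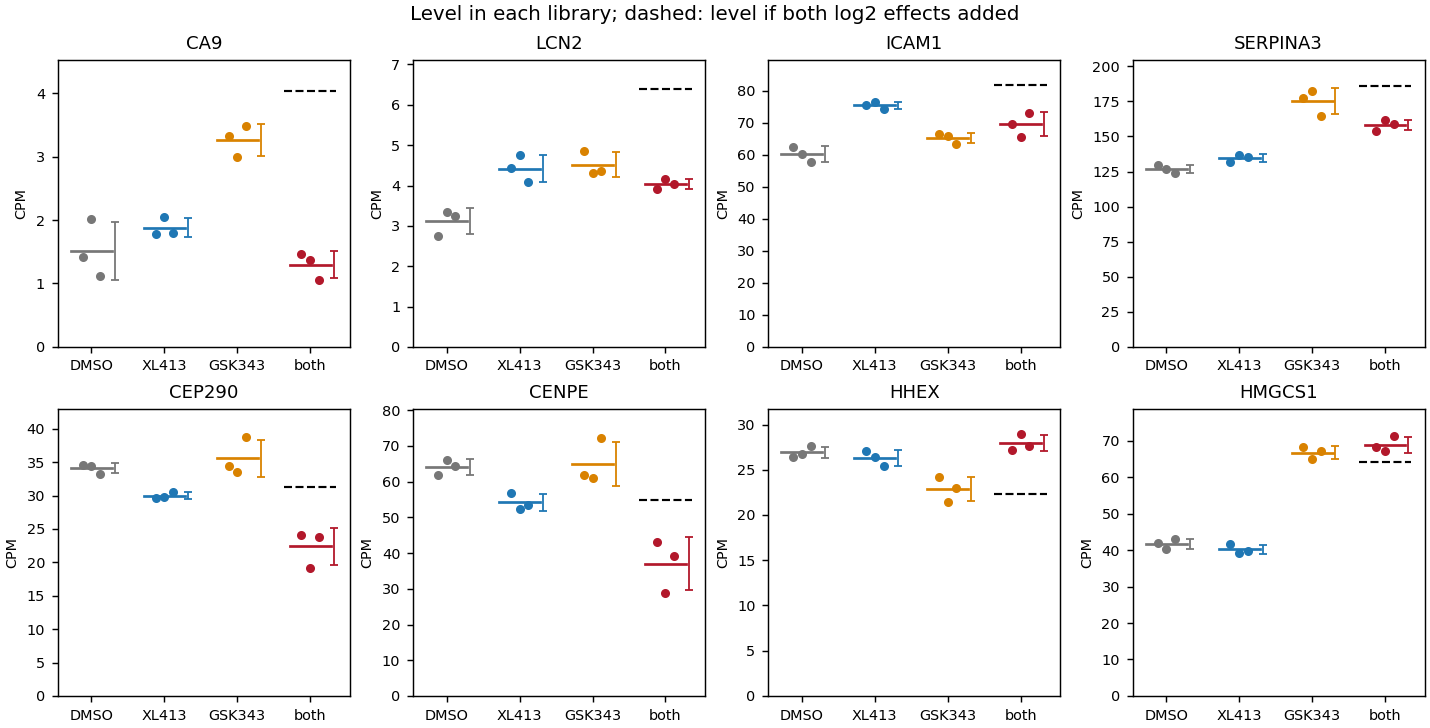
Level (CPM) of 8 genes in each of the 12 libraries; points are libraries, solid lines group means, bars ± SD of 3 libraries, and the dashed line is the level if both log2 effects added. CA9, LCN2, ICAM1, SERPINA3, CEP290 and CENPE lie below the dashed line with both compounds, HHEX lies above it and HMGCS1 close to it; none passed the adjusted test.

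Another set of genes below the sum had long transcripts, the longest of each running to 7948 bases for CEP290, 8612 for CENPE, 7772 for GOLGA4 and 12471 for AKAP9. CEP290, a protein of the ciliary transition zone, was 34.6, 34.4 and 33.2 CPM with DMSO, 29.6, 29.8 and 30.6 with XL413, 34.4, 33.6 and 38.8 with GSK343 and 24.1, 19.2 and 23.8 with both. CENPE, the kinesin that moves chromosomes at the kinetochore, was 61.8, 66.0 and 64.4 CPM with DMSO, 56.8, 52.4 and 53.4 with XL413, 61.7, 61.1 and 72.2 with GSK343 and 43.1, 28.7 and 39.1 with both. In both genes the combination lay below the other 9 libraries, and GSK343+XL413 replicate 2 was the lowest. CEP290 fell by 0.61 with the combination (adjusted p = 0.000859) and CENPE by 0.80 (adjusted p = 0.00124), while with XL413 alone the values were −0.18 (adjusted p = 0.317) and −0.24 (adjusted p = 0.359). The interaction was −0.49 (−0.73 to −0.25) for CEP290 and −0.58 (−0.92 to −0.24) for CENPE. Without GSK343+XL413 replicate 2 it was −0.39 (−0.56 to −0.23) and −0.43 (−0.63 to −0.24). Both genes are among those named for the smallest p in that fit, so these values are partly fixed by the choice.

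GOLGA4, a tethering protein of the trans-Golgi, was 125, 124 and 129 CPM with DMSO, 114, 105 and 108 with XL413, 128, 127 and 145 with GSK343 and 90.6, 74.3 and 92.4 with both. AKAP9, a scaffold of the centrosome and Golgi, was 61.1, 57.0 and 60.7 CPM with DMSO, 53.2, 46.5 and 49.2 with XL413, 59.4, 63.4 and 70.0 with GSK343 and 38.8, 24.95 and 41.2 with both. The order of the groups was that of CEP290, with the combination below the other 9 libraries and its second library lowest. GSK343 replicate 3 was the highest GSK343 library in these genes and in CEP290 and CENPE. It remains in the fit of 11 libraries, and a high GSK343 value lowers the interaction. The interaction was −0.43 (−0.65 to −0.20) for GOLGA4 and −0.62 (−1.03 to −0.21) for AKAP9, and −0.34 (−0.49 to −0.19) and −0.43 (−0.62 to −0.24) with 11 libraries. All 4 had an adjusted p of 0.989 with 12 libraries and 0.841 with 11. All 4 are among the genes named for the smallest p with 11 libraries, so that fit is not a separate check of them. With offsets for transcript length and GC content the adjusted p of GOLGA4 was 0.0504, the nearest to a call that any edgeR or limma setting gave for a named gene.

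The interaction moved with transcript length across all genes. Over 12201 genes of at least 1 log2 CPM with a known length, Spearman's rho between the interaction and the length was −0.402 with 12 libraries and 0.0717 with 11, given here as descriptions, since genes share the same libraries. In 5 groups of genes by length, from the shortest to the longest, the median interaction was 0.0604, 0.0363, 0.00842, −0.0237 and −0.0675. Without GSK343+XL413 replicate 2 the medians were −0.0123, 0.0028, 0.00809, 0.00929 and 0.00777. In that library the median difference from DMSO ran from 0.22 in the shortest group to −0.264 in the longest, against 0.0499 to −0.0418 in replicate 1 and 0.0261 to −0.0189 in replicate 3. Libraries of other groups deviated with length as well. Spearman's rho between length and the deviation from the group's other libraries was −0.641 in GSK343+XL413 replicate 2. It was 0.521 in GSK343 replicate 3, −0.447 in GSK343 replicate 1 and −0.376 in XL413 replicate 2, and these remain among the 11 libraries. The part of library quality in these values was not tested.

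**Figure D4:**
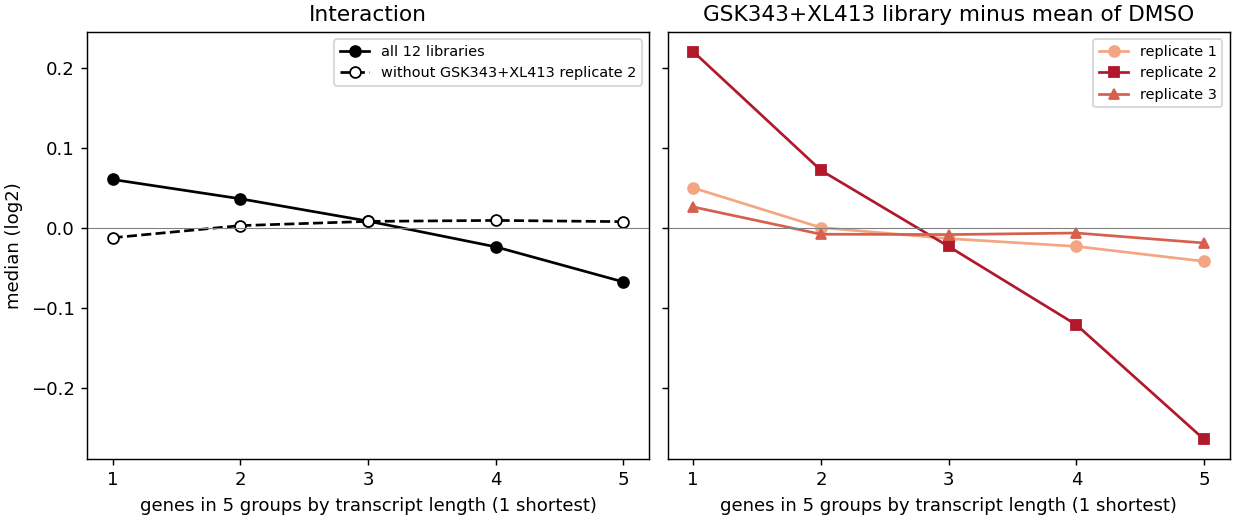
Median interaction (left, log2) and median log2 difference of each GSK343+XL413 library from the mean of DMSO (right) in 5 groups of genes by transcript length, the group numbered 1 holding the shortest. With 12 libraries the interaction falls from 0.0604 to −0.0675 across the groups and with 11 it stays between −0.0123 and 0.00929; the second library has the steepest line on the right.

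HHEX had the smallest unadjusted p of the named genes above the sum. This homeobox transcription factor gene (chromosome 10, 92689951 to 92695646) was 26.4, 26.7 and 27.6 CPM with DMSO, 27.1, 26.4 and 25.4 with XL413, 24.2, 21.5 and 23.0 with GSK343 and 27.2, 28.97 and 27.7 with both. The GSK343 libraries were below all others, and the combination stood in the range of DMSO or above it. The interaction was 0.32 (0.16 to 0.49, unadjusted p = 0.000892, adjusted p = 0.989), and 0.29 (0.13 to 0.45) without GSK343+XL413 replicate 2. GATSL2, a gene of the family of cytosolic arginine sensors, was 4.97, 4.71 and 5.09 CPM with DMSO, 3.32, 3.40 and 3.40 with XL413, 2.96, 4.11 and 3.72 with GSK343 and 3.38, 4.10 and 3.84 with both. All 9 treated libraries were below DMSO and overlapped, for an interaction of 0.61 (0.24 to 0.99, unadjusted p = 0.00352). LZTFL1, a regulator of ciliary trafficking, had 0.29 (0.09 to 0.48), and PGBD2, a gene derived from a transposase, 0.28 (0.09 to 0.47).

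Above 1 log2 CPM, 11 genes had an estimate beyond 2-fold, and for 2 of them the 95% interval left out 0: CA9 and the readthrough gene TMEM256-PLSCR3, chosen here for its value. RGPD5 and RGPD8, near-identical copies of a nuclear pore protein gene, had estimates of 1.05 (−0.02 to 2.12) and −1.11 (−2.28 to 0.06). RGPD5 was 28.2, 22.5 and 10.9 CPM with both compounds while RGPD8 was 6.23, 7.29 and 24.4 CPM. High values of one copy stood beside low values of the other, and their sum was 34.5, 29.8 and 35.3 CPM with both and 37.0, 37.2 and 41.0 with DMSO. From the group means, the interaction of that sum was −0.08. The division of reads between such copies is uncertain.

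TRIM34, an interferon-regulated ubiquitin ligase gene named for its value, has a mean under 1 log2 CPM. It was 0.787, 1.01 and 0.964 CPM with DMSO, 1.98, 2.44 and 1.49 with XL413, 2.57, 2.19 and 2.67 with GSK343 and 2.33, 1.71 and 1.92 with both. Its interaction was −1.42 (−2.02 to −0.81, unadjusted p = 0.000211). The readthrough gene TRIM6-TRIM34 overlaps it and was 1.09, 0.356 and 0.753 CPM with DMSO, 0.437, 0 and 1.04 with XL413, 0, 0.949 and 0 with GSK343 and 0 in all 3 libraries with both. The sum of both genes still gave −1.07 from the group means, beside −1.42 for TRIM34 alone. BAGE5, the other gene called by DESeq2 (adjusted p = 1.67e-10), belongs to a family of near-identical cancer-testis genes and was listed at 0 in every DMSO and combination library. It was 0, 5.90 and 5.01 CPM with XL413 and 4.60, 0 and 0 with GSK343, so 3 of the 6 single-compound libraries were also at 0. BAGE4, a copy of it also named for its values, was 6.15, 0.321 and 0.197 CPM with XL413 and 0.121, 4.46 and 5.94 with GSK343, high where BAGE5 was at 0. No departure can be estimated against 2 groups at 0.

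Lists of genes were compared with the sum by their medians. In the cholesterol synthesis and uptake list, 20 of 24 tested genes had an interaction above 0, beside 8016 of 15443 over all genes. All 24 were inside 1.5-fold, beside 72% over all genes and 89.3% over genes of at least 1 log2 CPM. Their median change was −0.0334 with XL413, 0.314 with GSK343 and 0.328 with both, the median sum was 0.237, and the median interaction was 0.0945 with 12 libraries and 0.0541 with 11. SQLE, the squalene epoxidase of that pathway, was 37.6, 37.3 and 36.9 CPM with DMSO, 33.5, 32.7 and 33.6 with XL413, 46.0, 47.7 and 48.3 with GSK343 and 46.1, 45.9 and 49.3 with both. XL413 libraries were the lowest, while the combination and GSK343 overlapped, for an interaction of 0.15 (0.02 to 0.28, unadjusted p = 0.0234). FDPS, which makes farnesyl diphosphate, gave 0.09 (−0.06 to 0.24). As the mean log2 level of the 24 genes relative to DMSO, the libraries with GSK343 were 0.299, 0.302 and 0.272 and those with both were 0.327, 0.351 and 0.335. Those with XL413 were −0.036, −0.0281 and −0.0216.

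Targets of ATF4, the transcription factor of the amino acid response, leaned the same way from the other side. Their median change was −0.126 with XL413, −0.187 with GSK343 and −0.199 with both, against a median sum of −0.305. Of the 20 genes, 16 had an interaction above 0, beside 8016 of 15443 over all genes, and the median was 0.0776. The list was chosen with earlier results known. Its genes fell with each single compound in the median, and those libraries enter the interaction with the opposite sign. The lean may therefore be partly fixed by the choice of genes and is a description. SLC3A2, the heavy chain of the amino acid exchanger, had 0.13 (−0.01 to 0.27), while its partner SLC7A5 had 0.03 (−0.14 to 0.20). VLDLR, a lipoprotein receptor in the same list, had −0.38 (−0.71 to −0.06). Inside 1.5-fold were 18 of the 20 genes (90%), beside 72% over all genes and 89.3% over genes of at least 1 log2 CPM.

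Interferon-stimulated genes had the lowest median interaction of the 27 lists, −0.107. Of 35 genes 7 were above 0 and 21 (60%) inside 1.5-fold, beside 8016 of 15443 and 72% over all genes. The median change was 0.277 with GSK343 and 0.0352 with XL413, and the list was chosen with earlier results known. Single-compound libraries enter the interaction with the opposite sign, so this lean, too, may be partly fixed by the choice of these genes. Their libraries were also uneven within groups: the mean log2 level of the 35 genes relative to DMSO was 0.219, −0.0185 and −0.201 with the solvent, and it was −0.0216, 0.214 and 0.303 under the combination. The spread inside those groups is as large as the differences between groups. OAS3, a sensor of double-stranded RNA, had an interaction of −0.18 (−0.51 to 0.15), and SAMD9, an antiviral factor, −0.25 (−0.54 to 0.05).

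Replication and cell cycle lists had the values below. For comparison, 72% of all tested genes and 89.3% of genes of at least 1 log2 CPM were inside 1.5-fold. All 25 tested genes of the MCM helicase and origin licensing were inside 1.5-fold, with a median interaction of 0.0474 with 12 libraries and 0.0172 with 11. MCM7, a subunit of the replicative helicase, fell by 0.15 with GSK343 (adjusted p = 0.0315), was 0.09 with XL413 (adjusted p = 0.231) and 0.00 with both (adjusted p = 0.954), an interaction of 0.06 (−0.03 to 0.15). All 28 G1/S and E2F targets were inside 1.5-fold, among them RRM2, a subunit of ribonucleotide reductase, at 0.07 (−0.04 to 0.17). Of 32 G2/M and mitosis genes 29 were, and CENPE, described above, lay farthest from 0. In 24 homologous recombination and Fanconi genes the median was −0.0485 with 12 libraries and −0.00327 with 11. BRCA2, a long gene of that list, had −0.37 (−0.81 to 0.08) and −0.20 (−0.50 to 0.11).

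Of 36 tested HOX genes, which are known Polycomb targets, 25 (69.4%) were inside 1.5-fold, beside 72% over all genes. An interaction above 0 was found in 18, and the median was −0.00139 with 12 libraries and −0.0624 with 11. HOXC10, a posterior HOX gene, had −0.09 (−0.21 to 0.03), and HOXB2 0.16 (−0.06 to 0.39). Of 43 other developmental regulators 29 (67.4%) were inside 1.5-fold, with RUNX3, a runt-domain factor, at 0.02 (−0.11 to 0.15) and TBX3, a T-box repressor, at −0.16 (−0.34 to 0.01). Among apoptosis regulators of the BCL-2 family, 12 of 15 were inside 1.5-fold. MCL1, a survival factor, had 0.04 (−0.07 to 0.14), and BAX, an effector of the mitochondrial pore, 0.08 (−0.11 to 0.27). Of the 15, 0 had an unadjusted p under 0.05, beside 2.67% over all genes, so this count does not set the list apart. CDKN1A, the p53-induced cell cycle inhibitor p21, had 0.04 (−0.09 to 0.17), and 22 of 24 p53 targets were inside 1.5-fold.

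**Figure D5:**
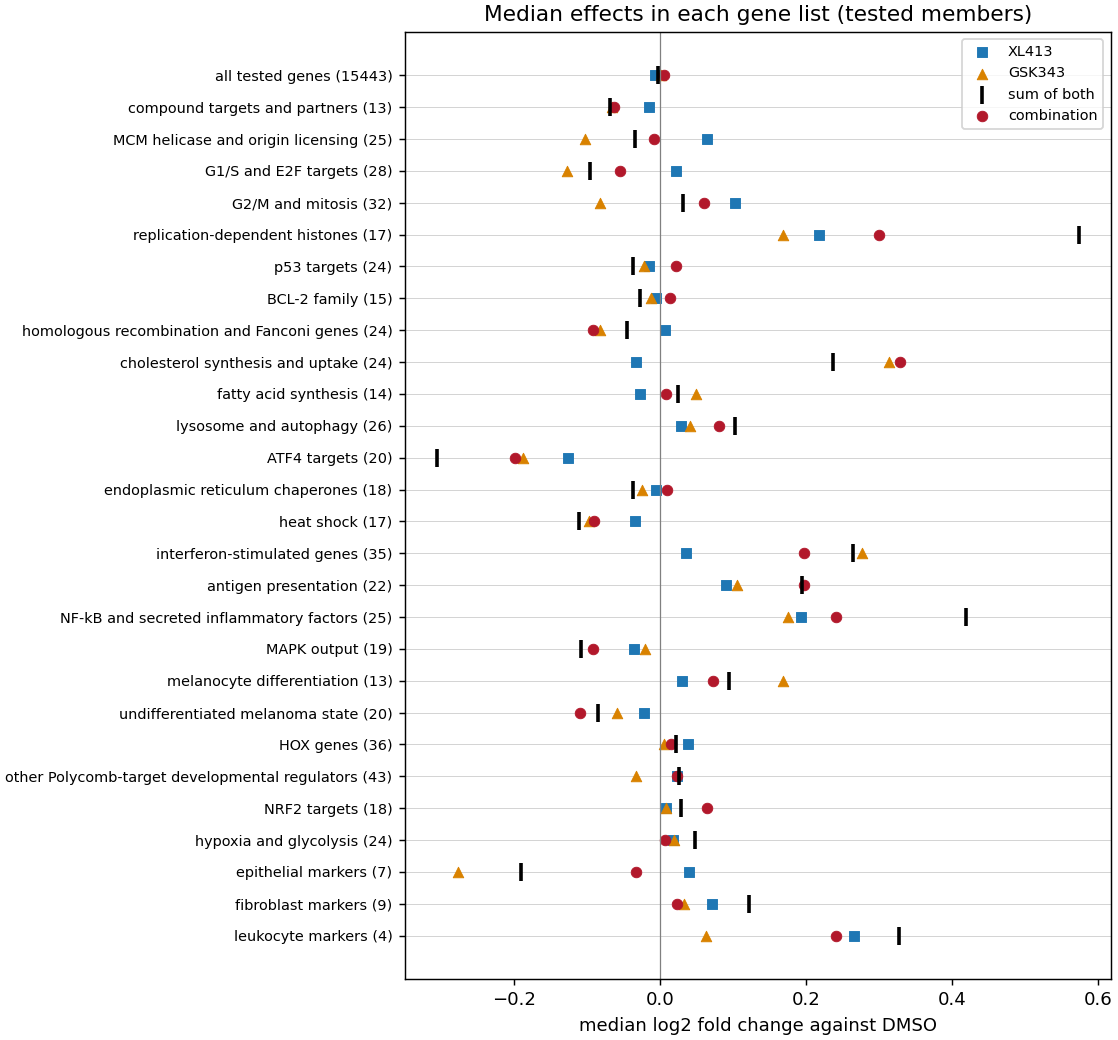
Median log2 fold change against DMSO over the tested members of each of 27 gene lists and of all genes (number of tested members in parentheses), with XL413 (squares), GSK343 (triangles) and both (circles), and the median of the summed single effects (bars). The circle lies below the bar for histone, NF-kB and interferon-stimulated genes and for fibroblast and leukocyte markers, and above it for epithelial markers, ATF4 targets and cholesterol synthesis, and the gap is smaller in the other lists. Medians of a list need not add: 7 of 9 fibroblast markers had an interaction above 0, with a median of 0.16.

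Genes of the melanoma cell state and of other cell types had the following values. SOX10, the neural crest factor, had an interaction of −0.03 (−0.19 to 0.14), and ERBB3, a neuregulin receptor, −0.20 (−0.45 to 0.06) with 12 libraries and −0.07 (−0.16 to 0.01) with 11. VIM, the intermediate filament of mesenchymal cells, had 0.05 (−0.08 to 0.18), and CCND1, the cyclin driven by MAPK signalling, 0.02 (−0.11 to 0.15). Of 12 epithelial marker genes 8 were under 1 CPM in every library, and so were 10 of 13 leukocyte markers and 1 of 10 fibroblast markers. The summed epithelial markers were nonetheless 660 to 692 CPM with DMSO, 650 to 683 with XL413, 593 to 614 with GSK343 and 610 to 675 with both. The summed fibroblast markers were 222 to 279 CPM with DMSO, 241 to 286 with XL413, 160 to 244 with GSK343 and 223 to 238 with both. COL1A1, the fibroblast marker of highest level, had an interaction of 0.17 (−0.29 to 0.62). The summed leukocyte markers, carried mainly by CORO1A and LYZ, were 21.4 to 23.1 CPM with DMSO, 26.0 to 27.6 with XL413, 21.6 to 24.0 with GSK343 and 25 to 27.7 with both.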

How the data were processed

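The deposited table holds expected counts per gene, estimated by the authors with RSEM 1.2.15 and Bowtie2 2.1.0 against hg38, per the submitters' processing notes. For the counting, annotation and strand setting are not given in the sources used. Between 10.5 and 11.1% of a library's values are not whole, and RSEM divides shared reads by estimate. The table has 26475 genes, 28 of them with names that look like dates, which were tested but not named.

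After rounding to whole numbers, the counts were fitted with edgeR 4.0.16 in R 4.3.3: filterByExpr on 4 groups (minimum count 10, minimum total 15; 15443 genes kept, 11032 removed), TMM, 1 quasi-likelihood fit with a coefficient per group and no covariate. All tests are two-sided, p is adjusted by Benjamini-Hochberg across the tested genes, and a call is an adjusted p under 0.05. SEs and 95% intervals come from the fitted coefficient, the quasi-dispersion and its t distribution. CPM values are scaled by TMM, and list levels are means of log2(CPM + 0.5). Counts set the precision, and intervals cover the spread between these libraries. The steps were tested on simulated data. Gene positions and longest transcripts came from GENCODE 29: 23872 names matched directly, 741 through a RefSeq synonym and 1862 not, and 97% of tested genes had a length and GC content.

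Named genes are the 6 higher and 6 lower with the smallest interaction p (mean of at least 1 log2 CPM), with 12 and with 11 libraries; all compound targets and partners; the 4 higher and 4 lower with the smallest p for each single compound; and of each other list the 2 of highest level and the 1 of smallest p. Not all of them are described. The interactions of genes named by their interaction p are partly fixed by that choice, with 12 and with 11 libraries. TRIM34, TRIM6-TRIM34, BAGE5, UBE2C, RGPD5, RGPD8, BAGE4, TMEM256-PLSCR3 and the further list members NDRG1, VEGFA and IL1A were named after their values were seen. The members, lists and tests were chosen with earlier results of these data known.

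The alternatives were RLE and upper quartile scaling, no filter, a filter of 5 CPM in 3 libraries, DESeq2 1.42.0, limma-voom (limma 3.58.1) with and without quality weights, robust dispersions, the replicate number as a block, offsets for length and GC content (mgcv 1.9.3), a minimum of 1.5-fold, and leaving out each library.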

Additional observations from a re-analysis of the deposited data

How the results depend on the processing

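DESeq2 called 2 genes for the interaction, CA9 and BAGE5. The other 22 alternatives called 0, with smallest adjusted p values from 0.0504 (offsets for length and GC content) to 1. Leaving out each library in turn gave 0 calls throughout, 12797 to 13022 genes inside 2-fold and 10579 to 11363 inside 1.5-fold, and every other setting kept both counts within 1.5 times of 13104 and 11113. Without a filter 13136 of 21208 genes were inside 2-fold, and with the stricter filter 11028 of 11100. The count at an unadjusted p under 0.05, 413, was 224 with DESeq2, 224 with the stricter filter, 670 with quality weights, 633 with the offsets and 857 without GSK343+XL413 replicate 3.

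No pairing of the libraries by replicate number was seen. Log2 deviations of same-numbered libraries correlated at −0.415 to 0.34 (median −0.0513, 18 pairs), other-numbered ones at a median of 0.046 (36 pairs). Of 12 libraries, 4 were closest to their own number. Single libraries also deviated with transcript length, so these correlations cannot exclude a pairing. With the replicate number as a block 0 genes were called, 13027 were inside 2-fold and 11081 inside 1.5-fold.

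Single-compound calls, 66 with XL413 and 180 with GSK343, became 245 and 338 with DESeq2, 1266 and 1068 with quality weights, and 554 and 640 with the offsets. GSK343 calls were 108 with the replicate block, and combination calls, 2152, were 3431 with quality weights. Of 594 list medians under the alternatives, 497 moved by less than the spread between replicates. The cause of these shifts was not tested. Counts limit what can be excluded for genes under 1 log2 CPM.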
